A study of Mus musculus with 6 samples.

Results

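The genes described are 6 that encode proteins which shorten the life of other mRNAs: Zfp36, Zfp36l1, Zfp36l2, Zc3h12a (Regnase-1), Rc3h1 (Roquin-1) and Rc3h2 (Roquin-2). They were chosen by their Ensembl identifiers, 6 of the 22322 genes in the deposited table, and all 6 were found there. Ribosome footprints, the short stretches of mRNA that a ribosome covers, were counted in 3 libraries of activated and 3 libraries of resting mouse CD4+ T cells. Activated cells are labelled 0h untreated and had been stimulated with beads that carry antibodies against CD3 and CD28. How long the beads were left on is not stated in the labels used here. Resting cells carry the same 0h untreated label and had no such stimulation. Both groups were taken by negative selection of CD4+ cells from 6 weeks old female C57BL/6J mice, which carry no listed mutation, with spleen and lymph node as the source. The libraries are called biological replicates and numbered 2, 3 and 4 in each group. Nothing says whether a number stands for an animal or a pool of animals. A p-value sets the difference between the groups against the spread of libraries within a group, and that spread may be technical. The question for these genes is how many footprints were counted on them, and on which part of the mRNA, in activated cells against resting cells.

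Zfp36 (tristetraprolin) and its paralogues Zfp36l1 and Zfp36l2 bind AU-rich elements, mostly in the 3′ ends of cytokine and other short-lived mRNAs, through a pair of CCCH zinc fingers, and bring in the CCR4-NOT complex, which removes the poly(A) tail. Zc3h12a is an endoribonuclease that cuts stem-loops in the mRNAs of inflammatory genes, and in T cells it is itself cleaved by the protease Malt1 after the antigen receptor is engaged. Rc3h1 and Rc3h2 recognise related stem-loops through their ROQ domain and also recruit CCR4-NOT. In T cells these proteins restrain cytokines and costimulatory receptors.

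CDS counts, which are footprints inside coding sequence, summed to between 511483 and 1074656 in the activated libraries and between 437200 and 594508 in the resting libraries. A low-count filter left 6775 genes, among them all 6 described here. The table pairs no identifier with a gene name, and the reference tables given here hold no Ensembl identifiers. The purity of the cells could therefore not be checked on marker genes, and known targets and partners of these proteins could not be looked up. Levels are given in CPM, the share of a library's CDS counts scaled to a fixed total, on library sizes scaled by TMM, a factor that offsets differences in composition. Levels of different genes are not compared, since no coding lengths were given. Shares and ratios of counts between genes, given below, are not corrected for coding length. In bulk libraries, fewer cells that use a gene and less mRNA per cell cannot be told apart. Without matched RNA counts, more mRNA and more ribosomes on each mRNA cannot be told apart either.

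CDS footprints rose in activated cells for 4 of the 6 genes, Zfp36, Zfp36l1, Zc3h12a and Rc3h1, and for Zfp36l2 and Rc3h2 the test was not passed. Among all genes tested, 24.1% were called higher and 21.6% lower at an adjusted p under 0.05. The groups did not overlap for those same 4 genes, against 54.8% of all genes tested. The median log2 change of the 6 was 1.32, against -0.04 over the 6775 genes. Together the 6 genes held 0.405 ± 0.096% of all CDS counts in activated cells and 0.104 ± 0.00318% in resting cells (SD, n = 3 each; exact two-sided permutation p = 0.1, the smallest that 3 libraries against 3 can give, and 0.14 after adjustment over 21 such shares).

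Zfp36 (ENSMUSG00000044786) lies on chromosome 7 (chr7:28376784-28379228, GRCm38.p6, minus strand). It had 1123, 999 and 879 CPM in activated replicates 2, 3 and 4, against 96.7, 109 and 99.9 CPM in resting replicates 2, 3 and 4. These values rest on 494, 795 and 826 CDS counts in activated and 46, 67 and 65 in resting libraries. Every activated library lay far above every resting one, and the resting values were close together. Footprints of Zfp36 rose 9.78-fold, a log2 change of 3.29 with an SE of 0.17 (edgeR adjusted p = 3.75e-10), and 73 of the 6775 genes had a higher log2 change.

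Zfp36l1 (ENSMUSG00000021127, chr12:80107760-80113013, minus strand) had 4111, 2644 and 2399 CPM in activated replicates 2, 3 and 4, against 311, 274 and 350.4 CPM in resting replicates 2, 3 and 4. Activated replicate 2 stood above the other activated libraries, and the groups did not overlap. Footprints of Zfp36l1 rose 9.75-fold, a log2 change of 3.29 with an SE of 0.21 (edgeR adjusted p = 7.22e-09), which ranged from 3.04 to 3.46 when single libraries were left out. A pseudogene, Zfp36l1-ps on chromosome X, is annotated, and how its reads were split from those of Zfp36l1 was not tested.

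The ratio of Zfp36 to Zfp36l1 counts within a library does not depend on scaling between libraries. On the log2 scale it was -1.57 ± 0.26 in activated and -1.61 ± 0.25 in resting cells (SD, n = 3 each), with overlapping values (exact permutation p = 1). A p of this size does not show that the genes moved alike. Their log2 changes differed by less than the SE of either.

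Since Zfp36 and Zfp36l1 rose most of the 6 genes, the DNA just upstream of the annotated start of each is shown. Shared control was not tested. The sequences are the 130 bases before the start from RefSeq, build GRCm38.p6, on the gene's own strand, at chr7:28379229-28379358 for Zfp36 and chr12:80113014-80113143 for Zfp36l1. Capitals mark matches to 6 motifs known from genes that respond to stimulation or mark a start site: TATAAA, the CArG box, the kappaB motif, the Egr motif GCGNGGGCG, the AP-1 motif TGANTCA and the CRE motif TGACGTCA. The motifs were chosen after the values were seen. Both strands were searched over 250 bases upstream, and no marked matches overlap.
Zfp36: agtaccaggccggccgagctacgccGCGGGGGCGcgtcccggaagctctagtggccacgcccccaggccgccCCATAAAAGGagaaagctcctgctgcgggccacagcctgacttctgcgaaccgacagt
Zfp36l1: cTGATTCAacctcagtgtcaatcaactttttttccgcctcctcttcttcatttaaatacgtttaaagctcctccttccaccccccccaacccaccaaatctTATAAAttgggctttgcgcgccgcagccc

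The Zfp36 window held an Egr match that begins 105 bases before the start and a CArG box that begins 58 bases before it. The Zfp36l1 window held an AP-1 match at 129 bases and TATAAA at 29 bases before the start. These matches were thus different in the 2 genes. Of 32851 promoter windows of the same length, 4.70% held the Egr motif, 1.47% the CArG box, 6.75% the AP-1 motif, 12.4% TATAAA, 7.25% the kappaB motif and 1.55% the CRE motif. Rc3h1 held 1 AP-1 match, 133 bases before its start, and the windows of Zc3h12a and Rc3h2 held no match to the 6 motifs. The Rc3h2 window precedes a transcript start at position 37422903, which lies inside the annotated span of the gene, and not the end of that span. RefSeq promoters were matched for 5 of the 6 genes, and Zfp36l2 was not among them. A match is a description of letters and not of a bound factor.

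Zfp36l2 (ENSMUSG00000045817, chr17:84183924-84187947) had no called change in the CDS, and the difference from its paralogues is given below as ratios. It had 464, 454 and 257 CPM in activated replicates 2, 3 and 4, against 444, 503 and 375 CPM in resting replicates 2, 3 and 4. The groups overlapped, and activated replicate 4 was the lowest of the 6 libraries. Its log2 change was -0.18 with an SE of 0.20 (edgeR adjusted p = 0.483), and 0.089 without activated replicate 4. With records at the edge of the coding sequence included it was -0.61 (edgeR adjusted p = 0.00789), and with all exonic records -0.66 (edgeR adjusted p = 0.00442).

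The ratios between the paralogues within a library lay far apart in the groups. The log2 ratio of Zfp36l1 to Zfp36l2 counts was 2.97 ± 0.37 in activated and -0.49 ± 0.39 in resting cells (SD, n = 3 each), an 11.1-fold change. The log2 ratio of Zfp36 to Zfp36l2 was 1.40 ± 0.34 in activated and -2.11 ± 0.17 in resting cells, an 11.3-fold change. For both ratios the groups did not overlap (exact permutation p = 0.1, the smallest possible, 0.167 after adjustment over 5 ratios). Of the counts of the 6 genes, Zfp36l1 held 64.9 ± 4.00% in activated and 32.8 ± 5.07% in resting cells. Zfp36 held 21.9 ± 2.60% in activated and 10.6 ± 0.477% in resting cells. Zfp36l2 held 8.39 ± 1.88% in activated and 46.0 ± 5.20% in resting cells (SD, n = 3 each). The other 3 genes held smaller shares in activated than in resting cells, although 2 of them, Zc3h12a and Rc3h1, rose in CPM. Zc3h12a held 1.65 ± 0.135% in activated and 2.90 ± 0.458% in resting cells, Rc3h1 2.45 ± 0.269% in activated and 4.92 ± 0.208% in resting cells, and Rc3h2 0.781 ± 0.255% in activated and 2.79 ± 0.834% in resting cells. These shares sum to 100 and so are not independent of each other, and each had an exact permutation p of 0.1 (0.14 after adjustment). No coding lengths entered these shares, so their order among the genes is not one of level.

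**Figure D1:**
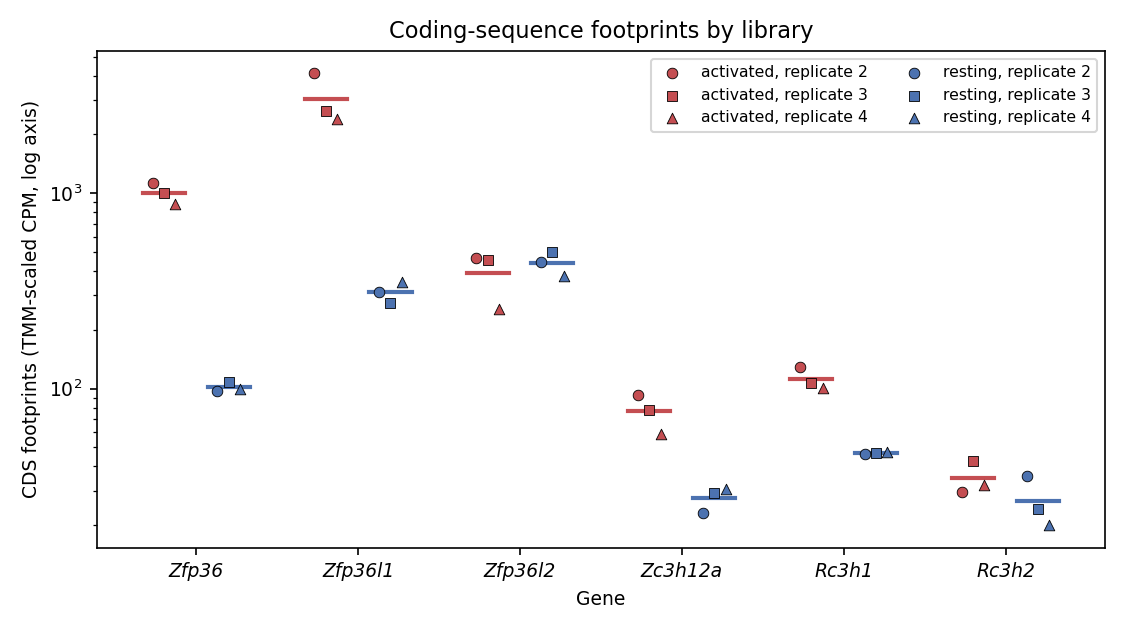
CDS footprints of the 6 genes in TMM-scaled CPM on a log axis, with activated libraries left of resting libraries for each gene, a marker shape for each replicate number and a bar at the group mean. Zfp36 and Zfp36l1 are separated by about an axis decade, Zc3h12a and Rc3h1 are separated by less, and Zfp36l2 and Rc3h2 overlap.

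**Figure D2:**
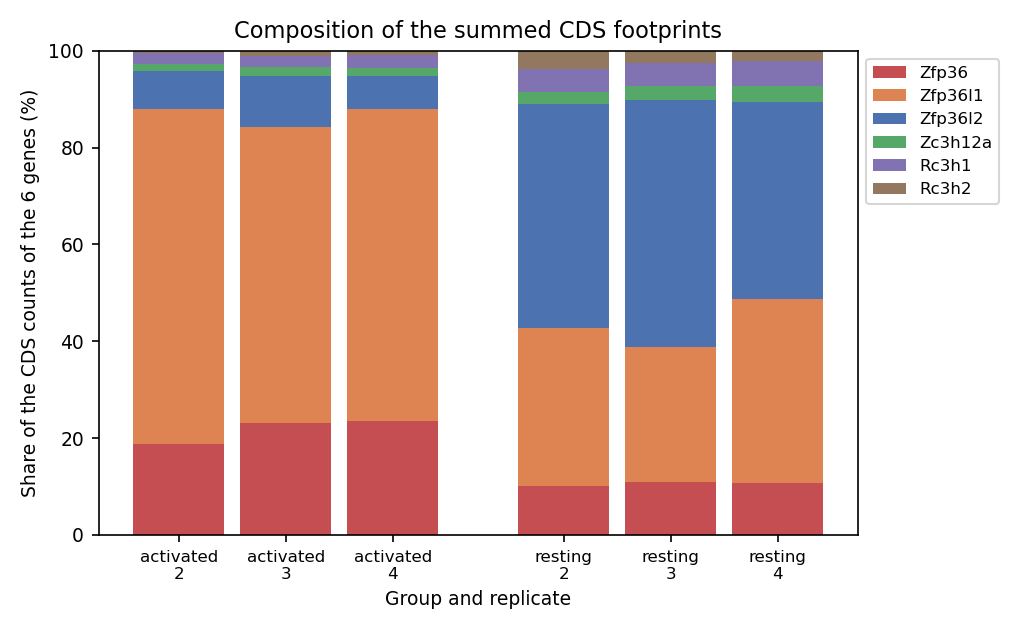
Share of each gene in the summed CDS counts of the 6 genes, in percent, 1 stacked bar per library with the activated libraries on the left. The shares are not corrected for coding length. Zfp36l1 (orange) averages 64.9% in activated and 32.8% in resting cells, and Zfp36l2 (blue) 8.39% in activated and 46.0% in resting cells.

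Zc3h12a (ENSMUSG00000042677, chr4:125118414-125127881, minus strand), the endoribonuclease, had 93.2, 77.9 and 58.5 CPM in activated replicates 2, 3 and 4, against 23.1, 29.2 and 30.7 CPM in resting replicates 2, 3 and 4. All activated libraries lay above all resting ones. This was a 2.65-fold rise, or 1.41 on the log2 scale with an SE of 0.26 (edgeR adjusted p = 0.000414). The resting level rests on 11, 18 and 20 counts.

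Rc3h1 (ENSMUSG00000040423, chr1:160906411-160974976, plus strand) had 129.5, 107 and 101 CPM in activated replicates 2, 3 and 4, against 46.3, 47.0 and 47.6 CPM in resting replicates 2, 3 and 4. The groups were well apart, and the resting libraries were nearly equal. This was a 2.35-fold rise, or 1.24 on the log2 scale with an SE of 0.21 (edgeR adjusted p = 0.000139). With all exonic records, which include its leader, the log2 change was 0.72 (edgeR adjusted p = 0.00356).

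Rc3h2 (ENSMUSG00000075376, chr2:37368861-37424370, minus strand), the second Roquin, had 29.5, 42.7 and 31.9 CPM in activated replicates 2, 3 and 4, against 35.7, 24.3 and 19.98 CPM in resting replicates 2, 3 and 4. The groups overlapped, and the counts were low, between 13 and 34 in a library. The log2 change of 0.44 with an SE of 0.30 did not pass the test (edgeR adjusted p = 0.254). The log2 ratio of Rc3h1 to Rc3h2 counts was 1.71 ± 0.41 in activated and 0.86 ± 0.45 in resting cells (SD, n = 3 each), without overlap but at an exact permutation p of 0.1. The log2 ratio of Zc3h12a to Rc3h1 was -0.57 ± 0.19 in activated and -0.77 ± 0.20 in resting cells, with overlapping values (exact permutation p = 0.3). A small nucleolar RNA gene, Snord90, lies within the span of Rc3h2.

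Footprints in the 5′ UTR, the leader before the coding sequence, are a separate readout of the same libraries. Of the 6 genes, 5 passed the low-count filter among 2200 genes tested there. Zfp36 was 1 of them only through the activated libraries, where it is high, and is left out of the counts that follow. Of the other 4, leader footprints rose for Zfp36l1, against 22.2% of genes called higher, and fell for Zfp36l2, against 19.8% called lower.

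Zfp36 had 12, 28 and 18 leader counts in activated replicates 2, 3 and 4, against 0, 1 and 1 in resting replicates 2, 3 and 4. The ratio of activated to resting level was 19.7, with a counting interval of 5.21 to 166 at 95%, and the fitted log2 change of 4.11 (edgeR adjusted p = 4.23e-05) depends on a group with 2 counts. In the RefSeq window the first ATG lies 31 bases after the annotated start of Zfp36. Whether that ATG is the start codon is not settled by these sequences.

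Zfp36l1 had 187, 195 and 239 leader counts in activated replicates 2, 3 and 4, against 30, 21 and 28 in resting replicates 2, 3 and 4. Leader counts of Zfp36l1 rose 5.25-fold, or 2.39 on the log2 scale with an SE of 0.28 (edgeR adjusted p = 1.48e-05). Zfp36l2 had 83, 171 and 120 leader counts in activated replicates 2, 3 and 4, against 126, 176 and 186 in resting replicates 2, 3 and 4. These counts overlap before scaling for depth. After scaling, the leader log2 change of Zfp36l2 was -0.95 with an SE of 0.23 (edgeR adjusted p = 0.00428), and -0.66 (edgeR adjusted p = 0.048) when leader counts were scaled as CDS counts. That scaling puts the median leader change of all genes at 0.30, against 0.022 with the leader's own.

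Zc3h12a had 27, 47 and 55 leader counts in activated replicates 2, 3 and 4, against 18, 19 and 15 in resting replicates 2, 3 and 4. Its leader log2 change was 0.70 with an SE of 0.29 (edgeR adjusted p = 0.0613), and 0.97 (edgeR adjusted p = 0.0195) with the CDS scaling, so the call depends on the scaling. Rc3h1 had 35, 33 and 38 leader counts in activated replicates 2, 3 and 4, against 23, 38 and 28 in resting replicates 2, 3 and 4. Scaled by the leader totals these were 458, 304 and 317 CPM in the activated libraries, against 429, 479 and 378 CPM in the resting libraries. Activated replicate 2 lay among the resting values and the other activated libraries below them. The leader log2 change of Rc3h1 was -0.27 with an SE of 0.27 (edgeR adjusted p = 0.455), and 0.032 with the CDS scaling. Rc3h2 had at most 9 leader counts in a library and was not tested.

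**Figure D3:**
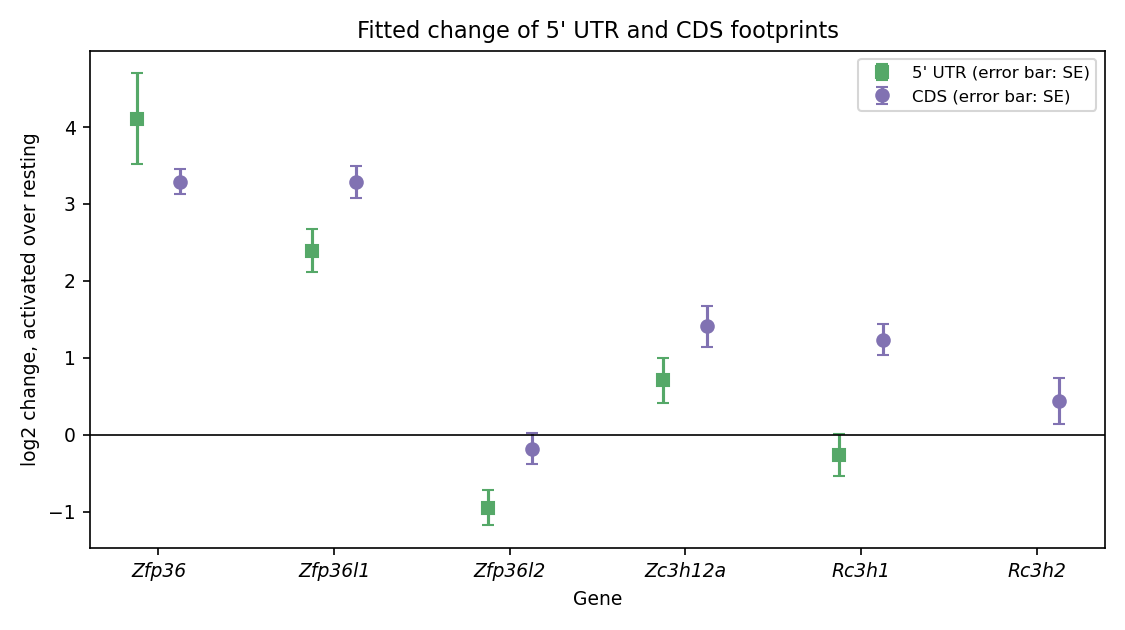
Fitted log2 change, activated over resting, of 5′ UTR footprints (squares) and CDS footprints (circles) of each gene, with SE bars. Rc3h1 has a CDS change of 1.24 and a leader change of -0.27, Zfp36l2 lies at -0.18 in the CDS and -0.95 in the leader, and Rc3h2 has no leader value, while the leader value of Zfp36 rests on 2 resting counts.

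Leader counts were a large part of the footprints of Rc3h1, Zc3h12a and Zfp36l2. Of leader and CDS counts together, the leader of Rc3h1 held 38.0%, 28.0% and 28.6% in activated replicates 2, 3 and 4, against 51.1%, 56.7% and 47.5% in resting replicates 2, 3 and 4. Every activated share was below every resting share, as for 3.47% of the genes with leader and CDS counts in this comparison, with a mean difference of -20.2 percentage points (exact permutation p = 0.1, 0.14 after adjustment). Zfp36l1 and Zfp36l2 had shares placed the same way, as given below. In a single library the 95% Wilson interval is wide, for example 20.7% to 36.7% in activated replicate 3 and 44.8% to 67.9% in resting replicate 3, and it covers counting error only.

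In a model over both regions, the leader of Rc3h1 fell relative to its CDS by 1.52 on the log2 scale (SE 0.34, edgeR adjusted p = 0.0291). Of 3670 genes tested this way, 0.545% were called, and Rc3h1 was 1 of these 20. The size held when libraries were left out (-1.66 to -1.45), but the call did not: the adjusted p from edgeR was between 0.0565 and 0.186 without each of activated replicates 3 and 4 and resting replicates 2, 3 and 4. With 1 scaling for both regions the change was -1.25 (edgeR adjusted p = 0.161), and with the replicate number as a block -1.53 (edgeR adjusted p = 0.0702). Zfp36l1, Zfp36l2 and Zc3h12a had leader changes relative to CDS of -0.83, -0.75 and -0.66, none past the threshold (edgeR adjusted p from 0.243 to 0.562). Zfp36 entered this fit only through its activated leader counts and could not be fitted with any 1 activated library left out, so its value of 0.97 (edgeR adjusted p = 0.73) is given with no weight.

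The leader of Zc3h12a held 39.7%, 43.1% and 50.0% of leader and CDS counts in activated replicates 2, 3 and 4, against 62.1%, 51.4% and 42.9% in resting replicates 2, 3 and 4. These shares overlapped (exact permutation p = 0.3). The leader of Zfp36l1 held 9.15 ± 0.583% in activated and 12.9 ± 3.38% in resting cells, and that of Zfp36l2 31.4 ± 2.25% in activated and 39.0 ± 3.77% in resting cells (SD, n = 3 each). For both, every activated share was below every resting share with the first CDS column (exact permutation p = 0.1, 0.14 after adjustment). The shares of Rc3h2 overlapped, and those of Zfp36 lay the other way, on 2 resting leader counts. The difference for Zfp36l2 was -7.52 percentage points with the first CDS column and -0.187 points when records at the edge of the coding sequence were counted as CDS. Over all genes the leader held 16.7%, 13.1% and 12.5% in activated replicates 2, 3 and 4, against 12.4%, 13.4% and 12.3% in resting replicates 2, 3 and 4.

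The table also allows a count of records at the edge of the coding sequence: those counted in its intersection-nonempty mode, which takes a record that lies partly in the feature, and not in the first CDS column. The counting mode of the first CDS column is not given. That these records lie at an edge, here and above, is thus a reading of the column headers and was not tested. Whether such a record lies at the start codon, the stop codon or another edge is not stated in the labels used here. This readout was added after the table had been seen. Zfp36l2 had 22, 76 and 73 border counts in activated replicates 2, 3 and 4, against 141, 164 and 195 in resting replicates 2, 3 and 4. They made up 9.73%, 17.4% and 23.2% of its intersection-nonempty CDS counts in those activated libraries, against 40.1%, 34.6% and 44.4% in those resting libraries. All activated values were below all resting values, in counts and in shares, and 18.3% of the genes tested for border footprints had shares placed that way.

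Border footprints of Zfp36l2 fell relative to its CDS, with a log2 value of -1.60 and an SE of 0.28 (edgeR adjusted p = 0.00137), which is 3.04-fold lower. Of 2753 genes tested, 0.182% were called, and Zfp36l2 was 1 of these 5. Without activated replicate 3 the change was -1.59 (edgeR adjusted p = 0.169). Without each of the other libraries the call held, but only just without activated replicate 2, at -1.29 (edgeR adjusted p = 0.0488). The border share over all genes also differed, with 7.74%, 8.41% and 8.87% in activated replicates 2, 3 and 4, against 9.80%, 10.2% and 10.6% in resting replicates 2, 3 and 4. The median log2 change of border over CDS footprints was -0.26 over the genes tested, and the part of this general shift in the value for Zfp36l2 was not tested.

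Border footprints of the paralogues relative to CDS did not pass the threshold. Their shares lay below the resting ones in every activated library, as in the 18.3% of genes above. Zfp36 had 6.97%, 12.1% and 14.8% in activated replicates 2, 3 and 4, against 17.9%, 22.1% and 25.3% in resting replicates 2, 3 and 4, and a log2 change relative to CDS of -1.05 with an SE of 0.34 (edgeR adjusted p = 0.181). Zfp36l1 had 5.68%, 8.68% and 7.55% in activated replicates 2, 3 and 4, against 11.4%, 12.4% and 8.80% in resting replicates 2, 3 and 4, and a log2 change of -0.52 with an SE of 0.30 (edgeR adjusted p = 0.509). Zc3h12a, Rc3h1 and Rc3h2 had between 0 and 5 border counts in a library and were not tested.

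The leader, border, CDS and 3′ UTR counts of Zfp36l2 were also summed. Of this sum, the leader held 27.3 ± 0.632% in activated and 27.2 ± 1.95% in resting cells. The border held 12.03 ± 4.82% in activated and 28.1 ± 2.94% in resting cells, and the CDS 59.7 ± 5.24% in activated and 42.8 ± 4.31% in resting cells (SD, n = 3 each). The border share was thus lower and the CDS share higher in activated cells, with the leader share close in the groups. These shares are parts of a whole, so a lower border share beside a close leader share brings a higher CDS share by arithmetic. The higher CDS share therefore does not show more CDS footprints. In CPM, the CDS of Zfp36l2 had 391 ± 117 in activated and 441 ± 64.0 in resting cells (SD, n = 3 each).

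**Figure D4:**
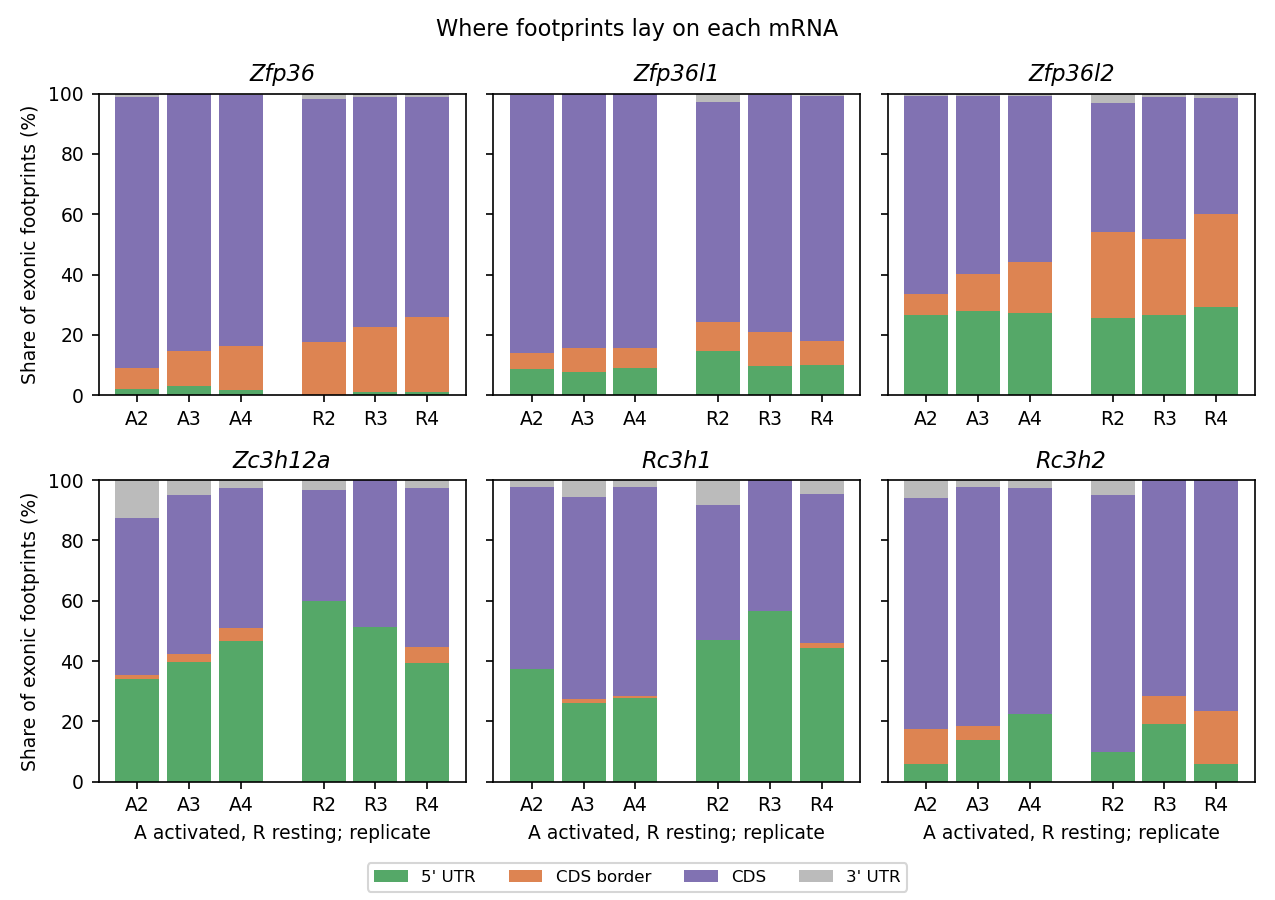
Share of each gene's exonic footprints, taken as the sum of the parts shown, in percent, in the 5′ UTR (green), at the border of the CDS (orange), in the CDS (purple) and in the 3′ UTR (grey), with 1 stacked bar per library, activated (A) left of resting (R) and replicate numbers below. The border part of Zfp36l2 averages 12.03% in activated and 28.1% in resting cells, and the leader part of Rc3h1 30.3% in activated and 49.4% in resting cells.

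Of genes with a mean of at least 20 CPM, the gene whose log2(CPM + 1) followed Zfp36 most closely over the 6 libraries was ENSMUSG00000027215.12 (Pearson r = 0.9995), at 1218 ± 58.3 CPM in activated and 336 ± 13.4 CPM in resting cells (SD, n = 3 each). For Zfp36l1 it was ENSMUSG00000032578.7 (r = 0.9994), at 597 ± 154 CPM in activated and 67.5 ± 7.65 CPM in resting cells. For the other 4 genes the highest r was between 0.9723 and 0.9989. The libraries form 2 groups, so r mostly records the contrast between them: 146 of 6290 genes had an r above 0.99 with Zfp36.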

How the data were processed

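The authors deposited 1 table of raw counts per gene, with 36 columns for 6 libraries. Per the file headers these cover CDS in 2 counting modes, the 5′ UTR, the 3′ UTR, exons and introns. Per the submitters' processing notes, the tools were TopHat2 2.0.13, Bowtie 1.1.1.0 and HTSeq, and the build mm10. The annotation, the trimming and whether counting used strand are not stated in these labels. Rows without a gene entered neither library sizes nor tests. In the CDS columns 65.8% to 79.6% of records were not uniquely aligned and 11.8% to 14.5% lay in no CDS.

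The main test was the two-sided quasi-likelihood F-test of edgeR 4.0.16 (R 4.3.3; filterByExpr, TMM, glmQLFit without the legacy option), adjusted by Benjamini and Hochberg's method across every tested gene. SE is the log2 change over the square root of F. CPM uses TMM-scaled totals. Leader or border over CDS changes came from 1 model with terms for library, region and region in activated cells, TMM within each region, and at least 5 counts in 3 or more libraries for each region. For shares and ratios an exact permutation test over the 20 assignments was used, two-sided. The smallest p is 0.1, so 0.05 cannot be reached. The fits were also run on simulated counts, with as many genes raised as lowered and far fewer changed than were called here. That simulation drew each region separately and does not test the scaling in these data. DESeq2 1.42.0, limma 3.58.1 and other alternatives are in the closing section.

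The members and lists were chosen with earlier results of these data known. The rule for named genes took all 6 members, the most like gene of each by Pearson r, and fixed lists of targets, partners, relatives and cell type markers by symbol. The ratios between members, the border counts and the motifs were added after the values were seen. Without symbols those lists could not be run, and only the most like genes of Zfp36 and Zfp36l1 are printed. Footprints per coding length could not be computed. Gene positions come from RefSeq for GRCm38.p6, matched by symbol for 6 of 6 members.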

Additional observations from a re-analysis of the deposited data

How the results depend on the processing

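Of 212 recomputed log2 changes of the 6 genes, 197 kept their direction and their side of the threshold, and CDS changes of Zfp36, Zfp36l1, Zc3h12a and Rc3h1 did so under all 16 alternatives each (2.95 to 3.41, 2.94 to 3.46, 1.07 to 1.61 and 0.72 to 1.34). The cause of the changes below was not tested. The CDS change of Zfp36l2 was -0.52 with library totals alone (edgeR adjusted p = 0.0363), -0.61 with the intersection-nonempty column, -0.66 with the exon column, and -0.29 to 0.089 without each library, turning to 0.089 without activated replicate 4 (edgeR adjusted p = 0.704). With the CDS scaling, leader changes were 0.97 for Zc3h12a and 0.032 for Rc3h1, and the leader change of Zfp36l2 was -0.66. Without each library the leader change of Zc3h12a was 0.52 to 0.84, past the threshold without activated replicate 2 (edgeR adjusted p = 0.0199). The leader over CDS change of Rc3h1 was -1.25 with 1 scaling, -1.53 with a replicate block (edgeR adjusted p = 0.0702), and -1.66 to -1.45 without each library. The border over CDS change of Zfp36l2 was -1.87 to -1.29 without each library. Library totals alone moved the median CDS change of all genes to -0.38, against -0.039, and the CDS scaling moved the median leader change to 0.30, against 0.022. Border alternatives were chosen after seeing the data.

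Genes changed in the CDS numbered 3097, and 2654 to 3055 without each library. Of these 1464 were lower, against 2572 when only totals were used and 831 in DESeq2, and 1176 to 1391 without each library. For the 5′ UTR, 924 genes changed, 436 of them lower. DESeq2 gave 587 and 223, the CDS scaling gave 261 lower, and leaving out each library gave 720 to 977 and 333 to 457. For 5′ UTR over CDS, 20 genes changed (8 higher, 12 lower), 3 with 1 scaling (2 and 1), 9 with a replicate block (3 and 6), and 1 to 23 without each library (0 to 8 and 1 to 16). The fewest came without resting replicate 4 (1), resting replicate 3 (2) and resting replicate 2 (8). For border over CDS, 5 genes changed, all lower, 17 with 1 scaling, 67 with a replicate block, and 0 to 34 without each library (0 without activated replicate 3, where 185 of 2369 genes had an unadjusted p under 0.05 in edgeR, 3 without activated replicate 2 and without resting replicate 3, and 34 without activated replicate 4). With the intersection-nonempty column, differences in the share among the 6 genes were 37.1 points for Zfp36l1, -46.2 for Zfp36l2, -0.609 for Zc3h12a and -1.36 for Rc3h1, against 32.1, -37.6, -1.26 and -2.47, and the leader share of Zfp36l2 differed by -0.187 points, against -7.52.

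The replicate numbers were not taken to pair the libraries: deviations of same-numbered libraries correlated at 0.13, 0.07 and 0.23 across genes, and the pairs with other numbers at -0.16 to 0.01. Each library correlated best with its own number, a hint from the data and not from the design. The block gave 3455 genes changed in the CDS, against 3097. The replicate block changed no other call of the 6 genes than that of Rc3h1 above. CDS counts in a library were as low as 11 for Zc3h12a and 13 for Rc3h2, which limits the precision of both.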

Other observations

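In the 3′ UTR the 6 genes had between 0 and 16 counts in a library and in introns between 0 and 12, and none passed the low-count filter there. The highest 3′ UTR count belonged to Zfp36l2, with 3, 6 and 4 in activated replicates 2, 3 and 4, against 16, 8 and 9 in resting replicates 2, 3 and 4. Zc3h12a had 10, 6 and 3 in activated replicates 2, 3 and 4, against 1, 0 and 1 in resting replicates 2, 3 and 4. Neither difference was tested. Rc3h2 had 3, 0 and 2 intronic counts in activated replicates 2, 3 and 4, against 7, 1 and 4 in resting replicates 2, 3 and 4, beside 13 to 34 CDS counts.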
